A study of Mus musculus with 10 samples.

Results

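Tnfrsf4, Galnt6, Podnl1 and Fras1 are 4 genes, among 27179 in the deposited count table, that stood higher in cochleas labelled Pknox2-/- and that belong to none of the usual lists of cochlear genes. They were picked because earlier fits of these same counts gave them small p-values above 0, so their difference between the genotypes is described here and not tested. Whole cochleas of mice at postnatal day 8 were sequenced for RNA, and the labels give the genotype Pknox2-/- (KO) for 5 libraries and Pknox2+/+ (WT) for the other 5. Pknox2 encodes a homeodomain transcription factor of the TALE family. The labels do not name the strain, the extent of the deleted part, or how many pups a library holds, and a whole cochlea brings bone, cartilage, marrow, nerve and connective tissue along with the sensory epithelium. The p-values measure the spread between libraries, which the series text calls independent biological samples.

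The 4 genes have unrelated roles. Tnfrsf4 encodes OX40 (CD134), a receptor of the tumour necrosis factor superfamily that co-stimulates activated T cells when it binds the ligand encoded by Tnfsf4. Galnt6 encodes an enzyme of the Golgi that starts mucin-type O-glycosylation by attaching N-acetylgalactosamine to serine or threonine. Podnl1 encodes podocan-like 1, a small secreted protein of leucine-rich repeats that belongs to the small leucine-rich proteoglycans of connective tissue matrix. Fras1 encodes a very large extracellular protein that forms the Fraser complex with FREM1 and FREM2 under embryonic epithelia, where it anchors the basement membrane to the underlying tissue.

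Library totals ran from 16.6 M to 19.4 M counts, where M is 1e+06. The tissue label held against its markers: cochlin (Coch) was at 860 CPM in KO and 1436 CPM in WT, and the hair cell myosin gene Myo7a at 16.3 CPM in KO and 18.0 CPM in WT. CPM is the count per M of the library total, with totals scaled by the TMM method. Pknox2 itself was at 21.1 ± 4.38 CPM in KO and 19.9 ± 1.96 CPM in WT (SD, n = 5 each). The count covers the whole gene and so does not check the labels, on which every direction below rests. The first principal component of log2 CPM (56.6% of the variance) set KO2, KO3 and KO5 apart: they scored 41.2 to 73.5 and the other 7 libraries -42.3 to 2.77. Ribosomal protein genes took 5.24% to 6.75% of their counts, against 2.58% to 4.41% in the others. The sum over Uty, Kdm5d, Ddx3y and Eif2s3y, which lie on the Y chromosome and mark male tissue, was 209 CPM in KO1 and 0 to 11.3 CPM in the other KO libraries, against 102 to 225 CPM in WT.

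Tnfrsf4 was scarce and about 3 CPM in KO against 1 CPM in WT. The gene (Entrez 22163) lies on the plus strand of chromosome 4, from 156013595 to 156016613 in RefSeq on GRCm38. KO1 to KO5 had 33, 56, 61, 48 and 64 counts, or 1.87, 3.43, 3.72, 2.72 and 3.85 CPM. WT1 to WT5 had 17, 19, 23, 14 and 18 counts, or 1.01, 1.10, 1.17, 0.797 and 1.02 CPM. Every KO library stood above every WT library, with KO1 the lowest of its group. Counting error alone is wide at these depths: the exact 95% Poisson interval was 22.7 to 46.3 counts for the 33 counts of KO1 and 14.6 to 34.5 counts for the 23 counts of WT3, and the 2 intervals overlap. The mean was 3.12 ± 0.824 CPM in KO and 1.02 ± 0.140 CPM in WT (SD, n = 5 each).

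Galnt6 was moderately expressed and higher in all KO libraries by a smaller factor. It lies on the minus strand of chromosome 15, from 100689915 to 100729376 (Entrez 207839). KO1 to KO5 had 26.4, 33.3, 34.2, 30.1 and 34.4 CPM. WT1 to WT5 had 20.6, 19.3, 22.8, 22.8 and 20.2 CPM. The groups did not overlap, and KO1 was again the lowest KO library. The mean was 31.7 ± 3.42 CPM in KO and 21.1 ± 1.59 CPM in WT (SD, n = 5 each).

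Galnt6 has a pair of annotated starts, and their upstream sequence is shown because the gene named in the labels encodes a DNA-binding protein. The set of RefSeq promoter windows at hand (GRCm38.p6) held Tnfrsf4 and Galnt6 among the 4 genes. Windows of Podnl1 and Fras1 were not in it and were not searched. The 250 bases before each Galnt6 start read 5′ to 3′ on the minus strand, with CG dinucleotides in capitals. The distal window is chr15:100729377-100729626 and the internal window chr15:100720478-100720727.
Galnt6 distal start: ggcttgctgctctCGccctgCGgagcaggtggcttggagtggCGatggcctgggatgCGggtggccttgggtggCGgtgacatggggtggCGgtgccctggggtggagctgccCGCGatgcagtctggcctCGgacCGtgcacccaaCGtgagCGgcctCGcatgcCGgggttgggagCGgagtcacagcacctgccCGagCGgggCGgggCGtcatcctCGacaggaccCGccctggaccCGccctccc
Galnt6 internal start: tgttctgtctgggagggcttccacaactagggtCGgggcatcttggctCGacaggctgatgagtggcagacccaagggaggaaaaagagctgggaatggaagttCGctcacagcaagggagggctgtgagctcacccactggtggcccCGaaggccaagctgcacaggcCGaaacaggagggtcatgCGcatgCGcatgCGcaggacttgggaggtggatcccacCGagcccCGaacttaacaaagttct

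The distal window holds 22 CG dinucleotides at 72.8% G or C, and the internal window 10 at 59.6%, where the median over 32851 windows of the same length was 6 and 52.4%. The letters TGACAG, a core known to be bound by the PKNOX and MEIS homeodomain group, were searched on both strands. They occur in neither Galnt6 window nor in the Tnfrsf4 window, and in 15.9% of all windows. The counts are per gene and do not tell which start was used.

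Podnl1 was at a similar level, with KO1 close to the WT libraries. It lies on the plus strand of chromosome 8, from 84125928 to 84142991 (Entrez 244550). KO1 to KO5 had 27.8, 41.5, 44.9, 37.3 and 47.2 CPM. WT1 to WT5 had 26.3, 25.3, 23.3, 20.5 and 19.8 CPM. The exact 95% Poisson intervals of KO1, with 492 counts (449 to 537), and of WT1, with 440 counts (399.8 to 483), overlap, while the other 4 KO libraries lay at 37.3 CPM or more. The mean was 39.7 ± 7.64 CPM in KO and 23.0 ± 2.83 CPM in WT (SD, n = 5 each).

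Fras1 did not separate the genotypes. It spans 96373777 to 96784733 on the plus strand of chromosome 5 (Entrez 231470). KO1 to KO5 had 40.8, 27.4, 33.3, 44.2 and 32.0 CPM. WT1 to WT5 had 29.7, 17.8, 25.9, 28.4 and 32.9 CPM. Of the KO libraries 3 lay above every WT library, and KO2 lay below WT1, WT4 and WT5. In contrast to the other 3 genes, Fras1 was highest in KO1 and KO4 and lower in KO2, KO3 and KO5. The mean was 35.5 ± 6.83 CPM in KO and 26.9 ± 5.68 CPM in WT (SD, n = 5 each).

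**Figure D1:**
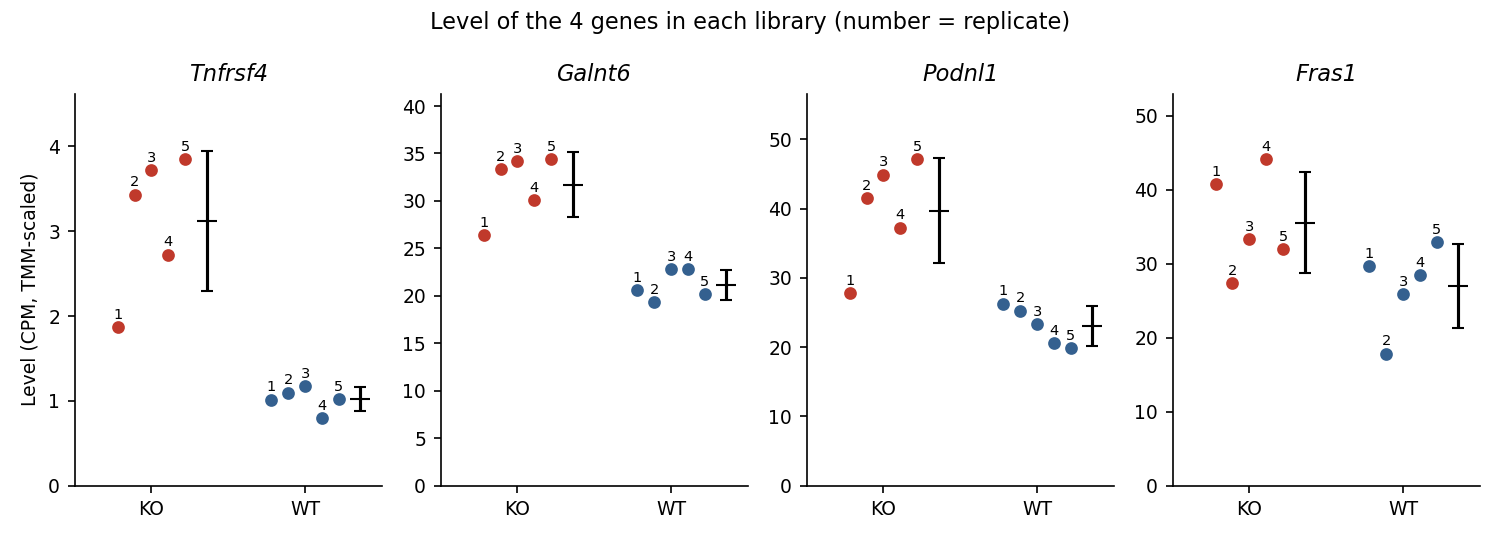
Level of Tnfrsf4, Galnt6, Podnl1 and Fras1 in CPM (vertical axis, from 0) in each KO (red) and WT (blue) library; numbers are replicates, and the black bars give the mean ± SD of 5 libraries. KO1 is the lowest KO library for Tnfrsf4, Galnt6 and Podnl1, and Fras1 is the gene whose groups overlap.

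Per kilobase of the longest GENCODE transcript the order of mean WT levels was Podnl1 at 11.0, Galnt6 at 5.57, Fras1 at 1.70 and Tnfrsf4 at 0.990 CPM per kb. In KO the same scale gave 19.0 for Podnl1, 8.35 for Galnt6, 2.24 for Fras1 and 3.03 for Tnfrsf4. Fras1, with a transcript of 15848 bases, has many counts for a low level per length, while Tnfrsf4, with 1030 bases, has few. Among 14987 tested genes with a known length, 56.7% were at or below Podnl1 in WT, 37.7% at or below Galnt6, 16.7% at or below Fras1 and 10.8% at or below Tnfrsf4.

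The values of edgeR's quasi-likelihood test over 16018 genes are given as a description, since fits of these same counts chose the genes. The log2 fold change, KO minus WT, was 1.60 for Tnfrsf4 (SE 0.242, adjusted p = 0.0721). It was 0.58 for Galnt6 (SE 0.108, adjusted p = 0.171) and 0.79 for Podnl1 (SE 0.149, adjusted p = 0.171). For Fras1 it was 0.40 (SE 0.175, adjusted p = 0.242). None of the 4 was called at an adjusted p of 0.05 by edgeR, where 0.0187% of all tested genes were called and 0.00624% were called higher in KO. Tnfrsf4 was under 0.1, as were 0.0437% of tested genes. All 4 had an unadjusted p under 0.05 with a value above 0, as did 11.4% of tested genes, and 20.1% had such a p in either direction. Among genes above 0 ordered by p, Tnfrsf4 was number 2 after Tectb, Galnt6 was 3, Podnl1 was 5 (with Glb1 at 4 and Tmem132a next at 6) and Fras1 was 1546 of 7734. When scores on the first component were added to the edgeR model, Fras1 came 2 in that order (unadjusted p = 9.29e-05, adjusted p = 0.121). The 3 genes whose groups did not overlap share that with 1.15% of tested genes. DESeq2 called 3 of the 4 (adjusted p = 1.83e-05 for Tnfrsf4, 0.000314 for Galnt6, 0.000514 for Podnl1 and 0.187 for Fras1), against 1.23% of genes called higher, and limma-voom called none of them.

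KO1 and the libraries that stood apart bear on the sizes. Without KO1, edgeR called Tnfrsf4 (log2 fold change 1.74, adjusted p = 0.0134), Galnt6 (0.64, adjusted p = 0.0297) and Podnl1 (0.89, adjusted p = 0.0172), against 0.67% of genes called higher in that fit. KO1 is the KO library with Y-linked counts at the WT level. Y-linked counts were low or absent in the other KO libraries and present in all WT libraries. Apart from KO1, a difference by genotype therefore cannot be told apart from one by sex. In the model that also holds Y-linked expression, the log2 fold change was 1.08 for Tnfrsf4 (SE 0.333), 0.40 for Galnt6 (SE 0.159), 0.43 for Podnl1 (SE 0.203) and 0.58 for Fras1 (SE 0.259). Without KO2, KO3 and KO5, which leaves KO1 and KO4 against 5 WT libraries, it was 1.16 for Tnfrsf4 (SE 0.296), 0.42 for Galnt6 (SE 0.130), 0.50 for Podnl1 (SE 0.158) and 0.66 for Fras1 (SE 0.194). With the first component as a covariate Fras1 had 0.74 (SE 0.133). None of the 4 was called by edgeR with Y-linked expression or the first component in the model. The same held without KO2, KO3 and KO5. The 4 genes kept a value above 0 in all 19 alternative fits. Those fits reuse the libraries on which the genes were chosen for being higher, so this is no independent check.

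**Figure D2:**
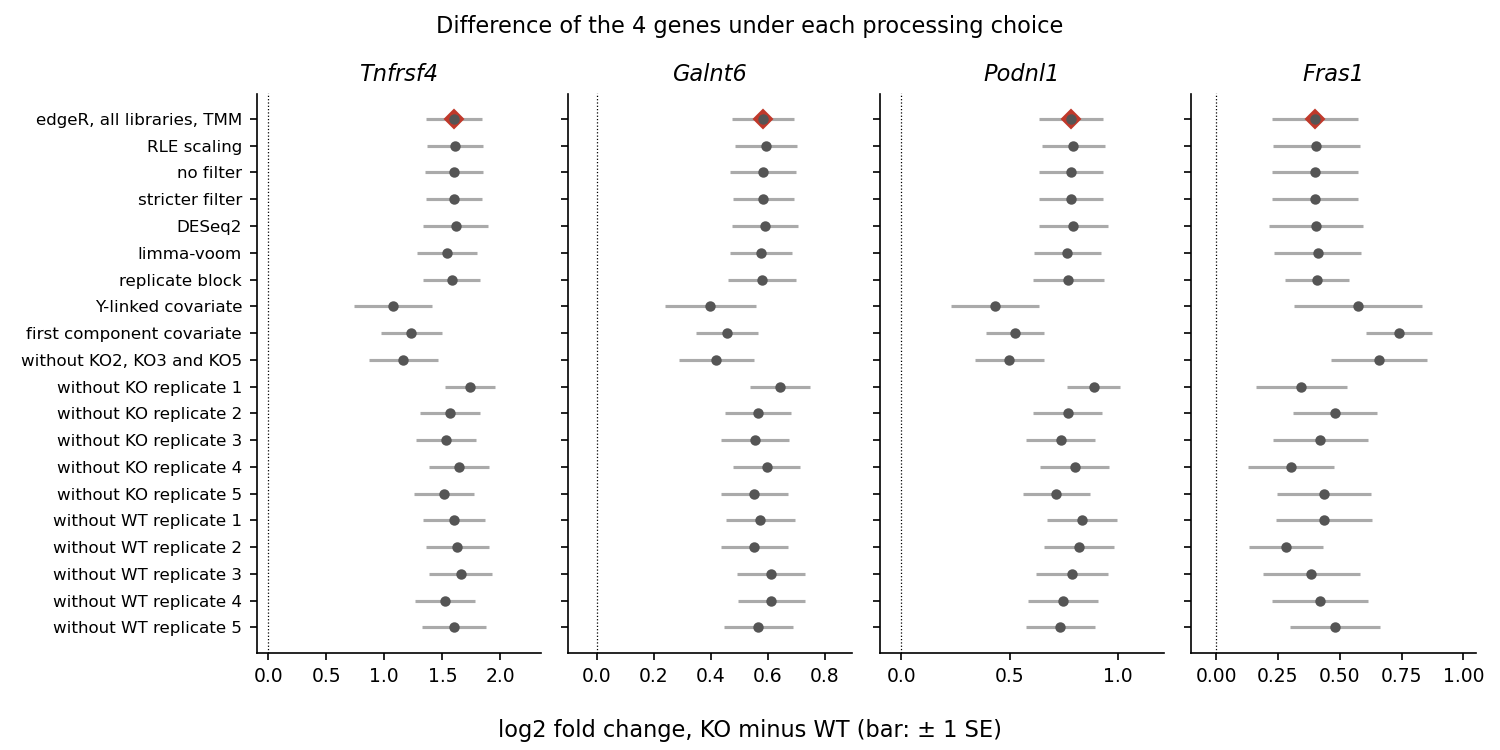
Log2 fold change, KO minus WT (horizontal axis), of each gene under 20 processing choices (rows), with bars of ± 1 SE; the red diamond is the fit of all libraries by edgeR. The covariates and the removal of KO2, KO3 and KO5 lower Tnfrsf4, Galnt6 and Podnl1 and raise Fras1, and no value falls below 0.

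Around Tnfrsf4, members of its receptor family lay on both sides of 0 and its ligand was all but missing. Tnfsf4, the OX40 ligand, had 0 counts over the 5 KO libraries and 2 counts over the 5 WT libraries. A count of 0 allows up to 3 counts. Tnfrsf18, which encodes the related receptor GITR and is the next named gene downstream at 9708 bases, was at 3.53 ± 1.20 CPM in KO and 4.28 ± 1.24 CPM in WT (SD, n = 5 each; log2 fold change -0.28, adjusted p = 0.527, edgeR). Of 40 other tested genes of the superfamily, its ligands and their TRAF adaptors, none was called by edgeR. DESeq2 called 1, Tnfrsf11b, as lower, where it called 132 of 15885 genes lower. At an unadjusted p under 0.05, 5 were above 0 (12.5%) and 5 below 0 (12.5%), against 11.4% and 8.66% of all tested genes. Their median log2 fold change was -0.05, and that of all tested genes was -0.01.

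The smallest p-values among these genes belonged to Tnfrsf11b, Cd40 and Ltbr. Tnfrsf11b encodes osteoprotegerin, the decoy receptor that restrains osteoclast formation, and was at 50.4 ± 14.3 CPM in KO and 93.0 ± 7.46 CPM in WT (log2 fold change -0.88, adjusted p = 0.179, edgeR). Cd40, a receptor of antigen-presenting cells, was at 9.99 ± 2.32 CPM in KO and 6.41 ± 1.14 CPM in WT (0.64, adjusted p = 0.214). Ltbr, the lymphotoxin beta receptor, was at 113 ± 28.1 CPM in KO and 81.9 ± 10.7 CPM in WT (0.47, adjusted p = 0.219). None of these passed the test.

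Markers of T cells, the cells known for OX40, were at a low level in both genotypes. In bulk tissue fewer cells of a type and less RNA per cell cannot be told apart. The T-cell receptor chain gene Cd3e had 21 counts over the KO libraries and 22 over the WT libraries. Foxp3, the factor that defines regulatory T cells, had 11 counts in KO and 10 in WT, and Cd8a had 25 in KO and 37 in WT. Most of the list's sum lay in Cd4 and the kinase gene Lck, which stood above Tnfrsf4. Cd4 was at 6.17 ± 1.21 CPM in KO and 6.40 ± 1.71 CPM in WT, and Lck at 5.53 ± 1.32 CPM in KO and 5.34 ± 1.57 CPM in WT (SD, n = 5 each). The 14 T-cell markers summed to 12.6 to 22.3 CPM in KO and 12.5 to 22.8 CPM in WT. Only 5 of the 14 passed the filter on low counts, none was at 0 in all libraries, and none was called by edgeR or DESeq2. At an unadjusted p under 0.05 there was 1 of the 5 (20.0%), Il2ra, lower at 0.730 CPM in KO and 1.25 CPM in WT. Of all tested genes 8.66% were lower at such a p.

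Other enzymes of mucin-type O-glycosylation lay on both sides of 0. Of 25 other tested genes none was called by edgeR, and DESeq2 called 1 higher (St6galnac4), against 1.23% of tested genes. In all, 11 lay above 0 and 14 below, where 48.3% of tested genes lay above 0. The median log2 fold change was -0.04. At an unadjusted p under 0.05, 3 were above 0 (12.0%) and 2 below 0 (8.00%), against 11.4% and 8.66% of all tested genes. Galnt3, a close relative of Galnt6 that glycosylates FGF23, was at 29.0 ± 3.49 CPM in KO and 25.1 ± 4.12 CPM in WT (log2 fold change 0.21, adjusted p = 0.338, edgeR). St6galnac4, a sialyltransferase that caps O-glycans, was at 73.3 ± 14.0 CPM in KO and 51.8 ± 6.15 CPM in WT (0.50, adjusted p = 0.210). Galnt10 was at 114 ± 6.77 CPM in KO and 96.1 ± 6.78 CPM in WT (0.25, adjusted p = 0.214), and Galnt17 at 21.6 ± 5.87 CPM in KO and 30.2 ± 5.95 CPM in WT (-0.48, adjusted p = 0.234).

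Other small leucine-rich proteoglycans likewise lay on both sides of 0. Podn, which encodes podocan, the nearest relative of Podnl1, was at 7.13 ± 0.867 CPM in KO and 6.62 ± 1.49 CPM in WT (log2 fold change 0.11, adjusted p = 0.713, edgeR). Of 15 other tested genes of the family none was called by edgeR, and DESeq2 called 1 higher (Tsku), against 1.23% of tested genes. In all, 7 lay above 0 and 8 below, with a median of -0.03, where 48.3% of tested genes lay above 0. At an unadjusted p under 0.05, 3 were above 0 (20.0%) and 2 below (13.3%), against 11.4% and 8.66% of all tested genes. Tsku, whose product tsukushi is a secreted modulator of several signalling pathways, was at 32.3 ± 3.43 CPM in KO and 23.0 ± 3.91 CPM in WT (0.49, adjusted p = 0.210). Chadl, chondroadherin-like of cartilage matrix, was at 166 ± 38.1 CPM in KO and 105 ± 29.6 CPM in WT (0.65, adjusted p = 0.214). Kera, the corneal keratocan gene, was at 1.97 ± 0.378 CPM in KO and 3.07 ± 0.518 CPM in WT (-0.64, adjusted p = 0.214).

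Fras1 stood on the opposite side of 0 from most other genes of the Fraser complex and basement membrane list. Frem1 was at 24.7 ± 9.83 CPM in KO and 29.3 ± 5.72 CPM in WT (log2 fold change -0.25, adjusted p = 0.521, edgeR). Frem2 was at 94.6 ± 28.1 CPM in KO and 91.7 ± 27.8 CPM in WT (0.05, adjusted p = 0.916). Grip1, the scaffold that brings the Fraser complex to the cell surface, was at 7.99 ± 3.18 CPM in KO and 10.9 ± 2.98 CPM in WT (-0.45, adjusted p = 0.323). Of 32 other tested genes of the Fraser complex and the basement membrane, 27 lay below 0 and 5 above, with a median of -0.23. Over all tested genes 48.3% lay above 0, and the median was -0.01. None of the 32 was called by edgeR, DESeq2 or limma-voom. At an unadjusted p under 0.05, 2 of the 32 were above 0 (6.25%) and 3 below (9.38%), against 11.4% and 8.66% of all tested genes. Among them Col4a3 and Col4a4, chains of basement membrane collagen, had -0.94 and -0.85 (adjusted p = 0.214 and 0.225), and Vwa2, which encodes the basement membrane protein AMACO, had 0.85 at 1.22 CPM in KO and 0.673 CPM in WT (adjusted p = 0.223). Without KO2, KO3 and KO5 the median of the 32 genes was 0.09.

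**Figure D3:**
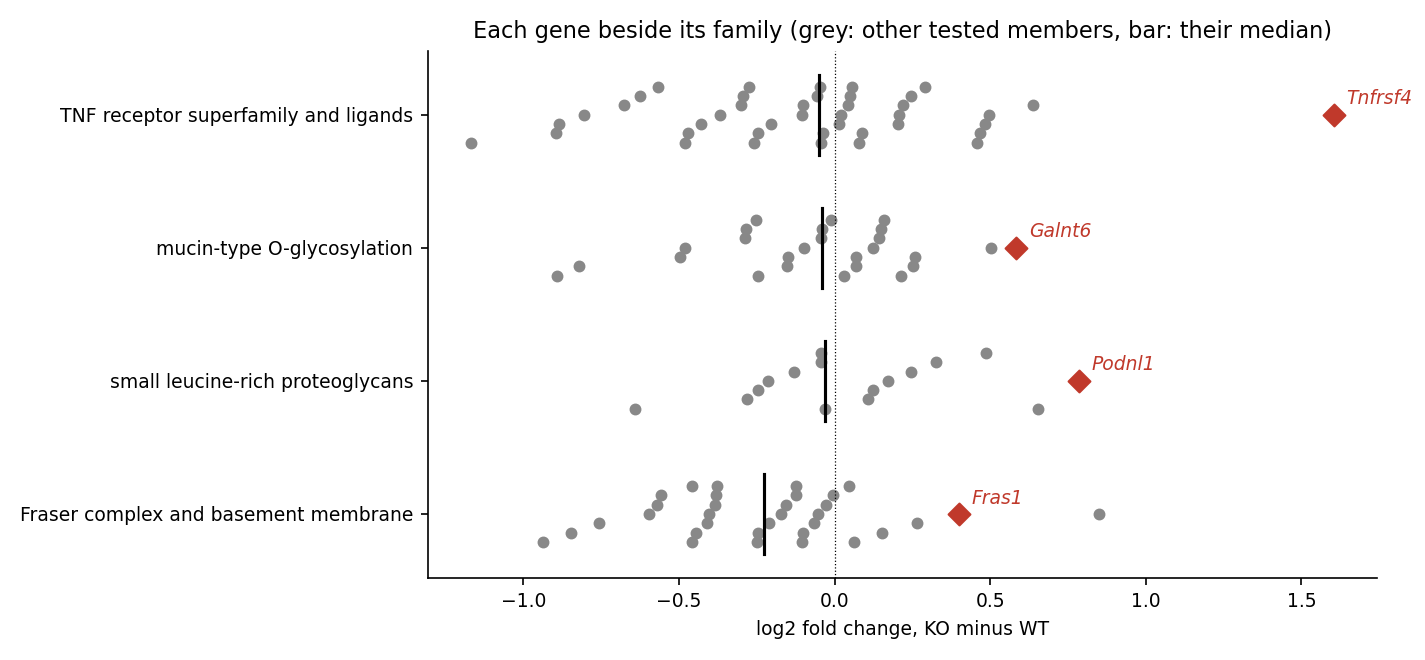
Log2 fold change, KO minus WT (horizontal axis), of each of the 4 genes (red diamonds) beside the other tested members of its family (grey points, 40, 25, 15 and 32 genes from top to bottom; vertical scatter has no meaning), with the median of the others as a black bar. The family medians lie between -0.23 and -0.03, while the 4 genes, chosen for being higher, lie between 0.40 and 1.60.

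Long transcripts as a class were lower in KO2, KO3 and KO5, and Fras1 is a long transcript. The 374 tested genes whose longest transcript has 10 kb or more had -0.31 as their median log2 fold change (13.4% above 0), while the 3660 genes under 2 kb had 0.25 (78.8% above 0). The median log2 deviation of the long genes from their mean over all libraries was -0.53 in KO2, -0.31 in KO3 and -0.40 in KO5, against 0.32 in KO1, 0.17 in KO4 and -0.23 to 0.47 in WT. Of the 374, 7 had a log2 fold change at or above that of Fras1, Fras1 included. Since Fras1 was picked for being higher, its place among them is a description and no test. The part of transcript length in the differences of the 4 genes was not tested.

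Inside each genotype Fras1 lay high and low in the same libraries as the other genes of the Fraser complex and basement membrane list. After the group means were removed, Pearson's r over the 10 libraries between Fras1 and the mean log2 CPM of the 32 other genes was 0.95 (Spearman's rho 0.95). The spread was not particular to this list: Tenm3 (0.99), Gpd2 (0.98) and Trp53bp2 (0.98), found by a search over all named genes, lie outside it. Long transcripts as a class were also lower in KO2, KO3 and KO5 than in KO1 and KO4, and their part in this r was not tested. Fras1 ranked high in the fit that holds the first component, so it may have been picked partly for its spread along that axis. Which of the earlier fits chose it is not known. Its r with lists that follow the component cannot be taken as independent of the choice. Every r of Fras1 is therefore given as a description with no p. This list is also among 5 measures (4 lists and the first component, 20 pairs with the 4 genes) added after the data were seen. Without KO2 and WT2, the libraries farthest from the median of the list, r was 0.91, and without KO2, KO3 and KO5 it was 0.95. Between genotypes Fras1 was shifted against the same genes: its log2 CPM minus their mean was -0.95, -0.65, -0.60, -0.69 and -0.64 in KO1 to KO5 and -1.32, -1.46, -1.42, -1.39 and -1.37 in WT1 to WT5. The groups did not overlap on this scale, and their means differed by 0.69. The share of all genes that would separate on it was not computed. Fras1 was picked for being higher and the list had a median log2 fold change of -0.23, so a gap was partly set by the choice. Against Frem1 alone the difference was 0.10 to 0.88 in KO and -0.23 to 0.01 in WT. Against Frem2 alone it was -1.67 to -1.20 in KO and -1.97 to -1.45 in WT, where the groups overlap. Since Fras1 was chosen on this contrast, these are descriptions with no test.

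**Figure D4:**
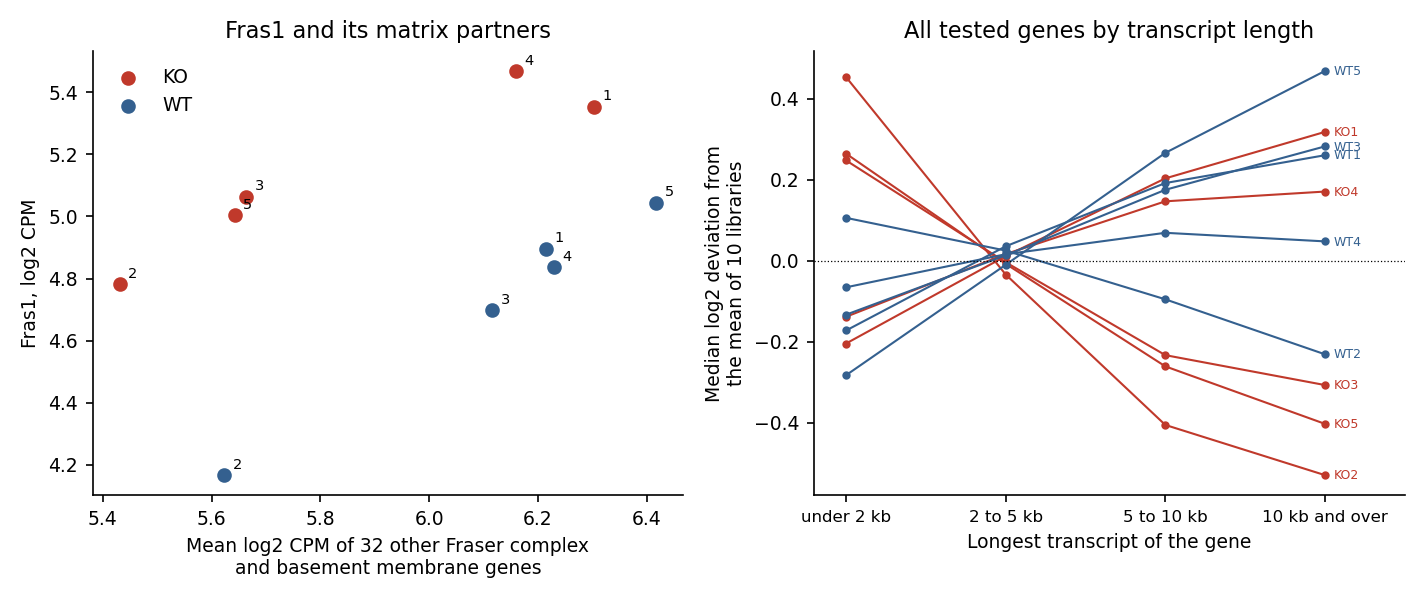
Left, log2 CPM of Fras1 (vertical) against the mean log2 CPM of 32 other Fraser complex and basement membrane genes (horizontal) in each KO (red) and WT (blue) library, with replicate numbers. Right, median log2 deviation of all tested genes from the mean of the 10 libraries (vertical), by transcript length class (horizontal), 1 line a library. The KO points on the left lie above the WT points at like values of the list, and on the right KO2, KO3 and KO5 reach -0.31 to -0.53 for the longest transcripts.

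To place the 4 genes among the tissues of the dissection, their spread inside the genotypes was set against marker lists of bone, cartilage, epithelium, fibroblasts and T cells. The group means were removed first, so that the difference between the genotypes plays no part. Over 28 pairs of a gene and a list, 7 had an unadjusted p under 0.05 and none an adjusted p under 0.05 (exact permutation test within groups, two-sided, 10 libraries). All points share the 10 libraries and the axis on which KO2, KO3 and KO5 stood apart.

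Among the 7 lists the highest r of Galnt6 was with fibroblast genes. With the 13 genes of that list, among them Pdgfra, Dcn and Col3a1, r was 0.89 and rho 0.87 (permutation p = 0.00194, adjusted p = 0.0544, and adjusted p = 0.0788 for rho). Without KO5 and WT5 r was 0.97, and without KO2, KO3 and KO5 it was 0.81. The summed level of the fibroblast list was 7750 to 11904 CPM in KO and 8109 to 11140 CPM in WT, with 9 of 13 genes above 0, a median of 0.07 and no member at 0 counts. With chondrocyte genes Galnt6 had an r of 0.61 (rho 0.48, permutation p = 0.0813, adjusted p = 0.235), which was 0.81 without WT2 and WT3, 0.33 without KO1 and 0.26 without KO2, KO3 and KO5.

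Among the 7 lists the highest r of Podnl1 was with osteoclast genes. With the 12 genes of that list, among them Ctsk, Acp5 and Dcstamp, r was 0.82 and rho 0.85 (permutation p = 0.00618, adjusted p = 0.0865, and adjusted p = 0.0788 for rho). It was 0.79 without KO3 and WT5 and 0.84 without KO2, KO3 and KO5. The osteoclast list summed to 4223 to 7526 CPM in KO and 2604 to 4043 CPM in WT. In it 11 of 12 genes had a log2 fold change above 0, where 48.3% of tested genes did, and the median was 0.66. Without KO2, KO3 and KO5 that median was 0.36, and 0.40 with the first component in the model. None of its members was called by edgeR. At an unadjusted p under 0.05, 8 (66.7%) were above 0, against 11.4% of tested genes, and DESeq2 called 7, against 1.23% of tested genes. The part of this list in the higher level of Podnl1 was not tested. Podnl1 had an r of 0.76 with osteoblast genes (rho 0.66, permutation p = 0.0349, adjusted p = 0.163) and 0.73 with fibroblast genes (rho 0.58, permutation p = 0.0309, adjusted p = 0.163). Without KO2, KO3 and KO5 these were 0.68 and 0.41, and without the farthest pairs of libraries 0.70 and 0.58. Without KO1 alone the osteoblast value was 0.44 and the fibroblast value 0.53. With T-cell markers Podnl1 had an r of 0.60 (rho 0.73, permutation p = 0.0485, adjusted p = 0.194), and 0.58 without WT2 and WT4. Without KO1 alone the T-cell value was 0.87, above the osteoclast value of 0.83 in that setting. The osteoblast list summed to 12967 to 16963 CPM in KO and 11223 to 13618 CPM in WT, with all 14 genes above 0 and none called by edgeR. At an unadjusted p under 0.05, 8 (57.1%) were above 0, against 11.4% of tested genes, and DESeq2 called 3, against 1.23% of tested genes.

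Tnfrsf4 too had its highest r among the 7 lists with osteoclast genes. It was 0.71 with osteoclast genes (rho 0.65, permutation p = 0.0166, adjusted p = 0.116) and 0.66 with fibroblast genes (rho 0.64, permutation p = 0.0669, adjusted p = 0.234). With T-cell markers it was 0.50 (rho 0.58, permutation p = 0.0839, adjusted p = 0.235). Without KO2, KO3 and KO5 the fibroblast value was 0.17, the osteoclast value 0.64 and the T-cell value 0.37. Without KO1 alone the fibroblast value was 0.37 and the osteoclast value 0.64. Without the farthest pair of libraries of each list they were 0.71 for fibroblasts, 0.79 for osteoclasts and 0.43 for T cells.

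With the lists of simple and stratified epithelium the r of the 4 genes lay between -0.33 and 0.34, Fras1 included. The simple epithelium list, with Epcam and Cdh1, gave -0.02 with Fras1 (rho -0.18), and the stratified list, of which 5 of 12 genes passed the filter and Dsg3 was at 0 throughout, gave -0.07 (rho -0.27). Without the farthest pairs they were -0.17 and -0.20. Leaving out libraries moved some of these values: Galnt6 had 0.09 with the simple list and 0.57 without KO1 and KO3, and Tnfrsf4 had -0.33 with it and -0.79 without KO2, KO3 and KO5. The simple epithelium list summed to 521 to 667 CPM in KO and 466 to 617 CPM in WT, with none of its 14 genes called. Of the 14, 9 lay above 0 and 5 below, where 48.3% of tested genes lay above. At an unadjusted p under 0.05, 8 (57.1%) were above 0, against 11.4% of tested genes. The list median of 0.41 was 0.11 without KO2, KO3 and KO5. Genes of the list did not all vary together. Cdh1 was at 164, 52.7 and 165 CPM in KO1, KO2 and KO4, and Krt18 at 13.9, 28.1 and 7.66 CPM. An r near 0 with the list mean therefore does not tell whether Fras1 follows some of its genes. A list of cochlear sensory epithelium, added after the data were seen with 13 tested genes, gave Fras1 an r of 0.69 (rho 0.72), which was 0.56 without KO2 and KO5 and 0.49 without KO2, KO3 and KO5. With it Tnfrsf4 had -0.66 (rho -0.70, permutation p = 0.115, adjusted p = 0.165), and -0.78 without KO2 and KO5. Podnl1 had -0.50 with it (adjusted p = 0.285, permutation test) and Galnt6 -0.40 (adjusted p = 0.389, permutation test). With T-cell markers Fras1 had an r of -0.75 (rho -0.68), which stayed at -0.75 both without WT2 and WT4 and without KO2, KO3 and KO5.

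Macrophage genes, also added after the data were seen, gave a positive r with 3 of the 4 genes and a negative one with Fras1. Podnl1 had an r of 0.86 with the 11 genes of that list (rho 0.72, permutation p = 0.00292, adjusted p = 0.0194, and adjusted p = 0.0926 for rho), and Fras1 had -0.82 (rho -0.89). Tnfrsf4 had 0.75 (rho 0.66, permutation p = 0.0133, adjusted p = 0.0514), above its osteoclast value, and 0.90 without KO3 and WT5. Galnt6 had 0.49 (rho 0.33, permutation p = 0.178, adjusted p = 0.222). Without KO3 and WT5 the r was 0.84 for Podnl1 and -0.82 for Fras1. Without KO2, KO3 and KO5 it was 0.79 for Podnl1, 0.51 for Tnfrsf4, -0.04 for Galnt6 and -0.75 for Fras1. The list summed to 667 to 923 CPM in KO and 511 to 712 CPM in WT. None of its genes was called by edgeR, and DESeq2 called 2 higher, against 1.23% of tested genes. The median log2 fold change of the list was 0.39. It was -0.02 without KO2, KO3 and KO5 and -0.01 with the first component in the model. With the scores of the first component Fras1 had -0.83 (rho -0.92), which was -0.76 without KO2 and KO5. Tnfrsf4, Galnt6 and Podnl1 had 0.72, 0.63 and 0.73 with those scores (adjusted p = 0.123, 0.165 and 0.0806, permutation test).

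**Figure D5:**
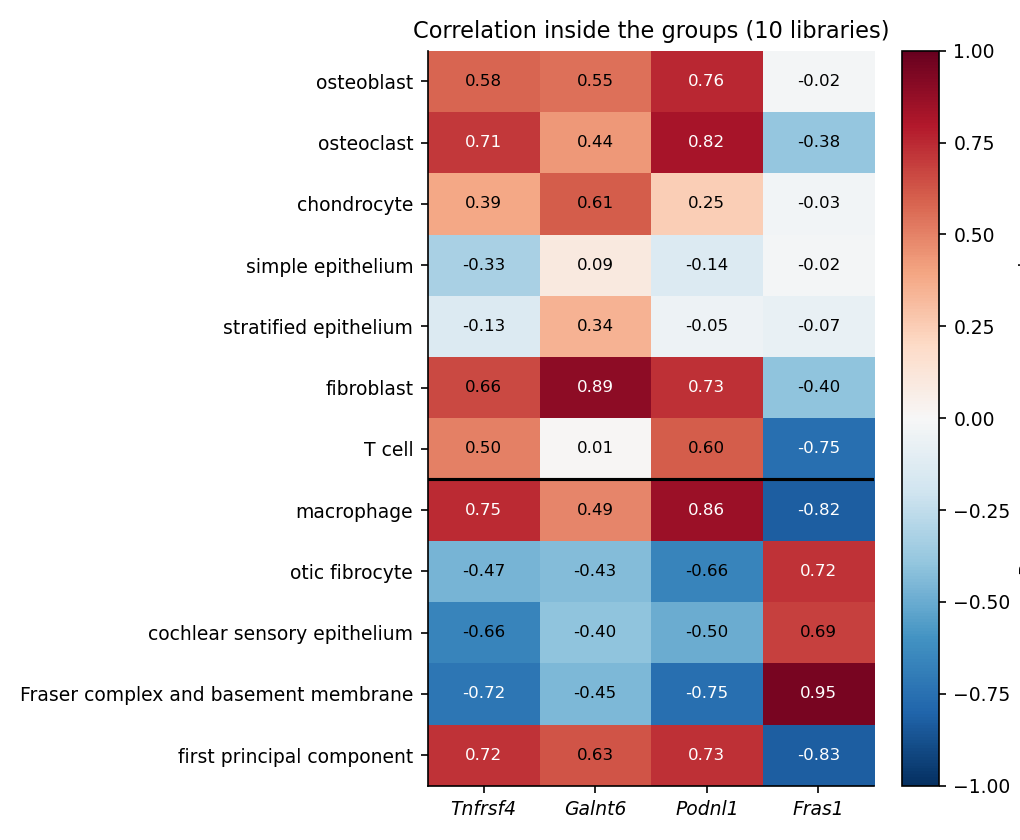
Pearson's r over 10 libraries, group means removed, between each of the 4 genes (columns) and the mean log2 CPM of each gene list or the first principal component (rows); red is positive and blue negative. Rows above the line are the 7 marker lists with p-values adjusted over 28 pairs, and rows below it were added after the data were seen. Fras1 has the opposite sign to Tnfrsf4, Galnt6 and Podnl1 in the 5 rows below the line.

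Among the 4 genes themselves, Tnfrsf4 and Podnl1 varied together inside the genotypes at an r of 0.89, and Galnt6 had 0.68 with Tnfrsf4 and 0.61 with Podnl1. Fras1 had -0.52 with Tnfrsf4, -0.56 with Podnl1 and -0.23 with Galnt6. These are descriptions over 10 libraries.

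The genes with the most similar spread inside the genotypes were sought among 14309 named genes with a mean of at least 1 CPM, by Pearson's r over the 10 libraries with group means removed. For Tnfrsf4 they were Tpcn2 (0.95), an ion channel of lysosomes, Exoc3l4 (0.95), the non-coding gene Carmn (0.94), Hrc (0.93) and the scavenger receptor gene Scarf1 (0.93). For Galnt6 they were the tetraspanin gene Tspan11 (0.98), Gstm4 (0.95), the transcriptional cofactor gene Lmo4 (0.95), Ggt1 (0.93) and Sec1 (0.93). For Podnl1 they were Lilr4b (0.97), an inhibitory receptor of myeloid cells, Ecd (0.97), Upf3b (0.97), Slc35d2 (0.96) and Hspb7 (0.96). For Fras1 they included the teneurin gene Tenm3 (0.99), the collagen IV gene Col4a2 (0.98), Gpd2 (0.98) and Trp53bp2 (0.98). With so many genes and 10 libraries, values of this size mark a ranking and no more. None of the genes named here for their spread was called between the genotypes by edgeR, which called 0.0187% of all tested genes.

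The genes next to each of the 4 on the chromosome were not called by edgeR either, where 0.0187% of all tested genes were called. Sdf4, which ends 16 bases inside the RefSeq extent of Tnfrsf4 on the same strand and before the GENCODE model of Tnfrsf4 begins, was at 312 ± 43.8 CPM in KO and 276 ± 21.6 CPM in WT (SD, n = 5 each; log2 fold change 0.18, adjusted p = 0.344, edgeR). Cc2d1a overlaps Podnl1 on the opposite strand by 10164 bases in RefSeq, and whether the counting used strand is not known from the labels. Cc2d1a was at 46.0 ± 8.49 CPM in KO and 36.6 ± 3.57 CPM in WT (0.33, adjusted p = 0.233), and Dcaf15 on the other side of Podnl1 had 0.36 (adjusted p = 0.235). Both neighbours of Podnl1 were above 0 at an unadjusted p under 0.05 (0.0279 and 0.0309, edgeR), as were 11.4% of tested genes. The GENCODE model of Podnl1 ends at 84132527, before Cc2d1a begins at 84132828. The neighbours of Galnt6 had 0.06 (Cela1, adjusted p = 0.903) and -0.27 (Slc4a8, adjusted p = 0.374). Galnt6os lies inside Galnt6 on the opposite strand over 3839 bases, and the gene models Gm33050 (on the opposite strand), Gm52781 and Gm32995 lie inside the extent of Fras1. They were not analysed here, and reads from overlapping opposite strands cannot be told apart without a strand setting. Those of Fras1 had 0.08 (Mrpl1, adjusted p = 0.715) and 0.14 (Anxa3, adjusted p = 0.562).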

How the data were processed

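Raw read counts per Entrez gene were deposited by the authors for 10 libraries. Per the submitters' processing notes, the tools were HISAT2, featureCounts and limma and the build mm10, with no version or role for any. Which annotation, strand setting, filter or pooling was used is not known from the labels. Symbols came from RefSeq GRCm38.p6 (25275 IDs) and GENCODE M21 (18 IDs), and 1886 IDs had none.

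Counts were tested with edgeR 4.0.16 (R 4.3.3) by glmQLFit and glmQLFTest, with TMM scaling, filterByExpr (minimum count 10, minimum total 15) and Benjamini-Hochberg adjustment over 16018 genes. A standard error is |log2 fold change| over the square root of the F statistic. Alternatives were DESeq2 1.42.0, limma-voom 3.58.1, other scaling and filters, covariates, a replicate block and leaving out libraries. The fit was tested on simulated data. Correlations used log2 CPM (prior count 2) and all 14400 permutations within groups. Intervals cover counting error only.

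The 4 genes and all lists were chosen with earlier results of these data known. Named are the 4 genes, Pknox2, their set partners, up to 4 called or else the 3 members of each family with the smallest p, chromosomal neighbours and the 5 genes of most similar spread, of which 1 for Fras1 is not reported here. Other genes named, such as Cd3e, Foxp3, Cd8a, Cd4, Lck, Coch and Myo7a, were chosen after their values were seen. No pair of libraries of a group agreed within sampling noise.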

Additional observations from a re-analysis of the deposited data

Results flagged for a closer look

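Of 62 sets of 5 libraries examined, 31 genes in each genotype, 2 held a library whose gap to the nearest other exceeded Dixon's 95% critical share of the range, and chance flags about 1 in 20 such sets. Galnt3 was at 22.9 CPM in KO5, against 29.6 to 31.3 CPM in the other KO libraries, a gap of 0.791 of the range. Tsku was at 26.3 CPM in KO1, against 32.4 to 34.7 CPM in the other KO libraries, a gap of 0.733 of the range.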

How the results depend on the processing

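The number of genes called between KO and WT, 3 with all libraries (1 higher, 2 lower), stayed at 3 with RLE scaling, no filter, the stricter filter and limma-voom. It was 327 with DESeq2 and 0 with the Y-linked covariate (293 at an unadjusted p under 0.05, edgeR). Each of 2 fits chosen after the data were seen, the first component as covariate and the removal of KO2, KO3 and KO5, gave 1. Removal of single libraries gave 1 to 166 calls, the highest without KO1. The number of gene and list pairs passing, 0 of 28 with all libraries, lay between 0 and 1 over the single removals, the 1 being Galnt6 with fibroblasts without WT2 or WT5, and stayed at 0 with a prior count of 0.5 and without the farthest libraries. The log2 fold change of Pknox2 was -0.048 without KO4, and -0.048 to 0.15 over the single removals. With the replicate number as a block 1 gene was called, and the 4 genes had 1.58, 0.58, 0.77 and 0.41 in the order Tnfrsf4, Galnt6, Podnl1 and Fras1. Same-numbered libraries deviated from their group means with correlations of -0.38 to 0.51, so the libraries share only a number, and 1 of 5 KO libraries matched its own number best. Depth limits Tnfrsf4, with 14 to 64 counts a library.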
